A study of Caenorhabditis briggsae with 16 samples.

Results

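Small RNAs of the nematode Caenorhabditis briggsae were sequenced at 1 h intervals, and the 4 libraries of hours 22 to 25 are compared here with the 4 libraries of hours 26 to 29, which are 8 of the 16 libraries of a course that ran from 18 to 33 h. The libraries were assigned to the windows by the sampling hour in their labels alone. All came from whole animals of the wild-type strain AF16, grown at 25°C from synchronized L1 larvae that had been plated on food, with no treatment, and time on food is the one labelled difference between the windows. The labels do not give the larval stage or the age of the animals beyond this time. Each hour is represented by 1 library, and the 4 hours of a window stand in for replicates. The p-values below therefore measure the difference between windows against the spread between hours of a window, and neighbouring hours are not independent.

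A miRNA is cut from a hairpin precursor as a duplex of a 5p and a 3p arm. One arm, the guide, is loaded into an Argonaute protein and directs repression of target mRNAs, whereas the other, the passenger, is usually discarded. Guides tend to be stable, so that their level follows production slowly, and passengers tend to follow production more closely. In C. elegans, a relative of C. briggsae, several miRNAs of the heterochronic pathway time the succession of larval cell fates, and many more differ in level between developmental stages. The guide was taken here as the arm of a hairpin with the higher mean level over all 16 libraries. In the MirGeneDB names used below, an asterisk marks most passengers, and the prefix Cbr- is left out. A normalized count is the count of an arm divided by the total of its library and multiplied by the mean total of the 16 libraries.

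Of 372 arms in the table, 369 had a count in at least 1 of the 8 libraries and 313 had 10 or more counts in at least 4 of them. These 313 arms were tested, among them both arms of 129 hairpins. Library totals were 10743163 to 15697671 counts, and the 10 most abundant arms took 60.4% to 62.5% of each library. Several rows cannot be told apart by counting. There were 26 sets of rows of the same family and arm whose counts agree within sampling noise, with 64 rows in all, and 12 of the 16 rows named -v2 hold the counts of their -v1 row exactly in all 8 libraries. Since the samples are whole animals, a lower number of cells of a type and a lower level of RNA per cell cannot be told apart.

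Between the windows, 35 arms rose (11.2% of the 313 tested) and 62 fell (19.8%) at an adjusted p below 0.05 in edgeR's quasi-likelihood test. The rises were larger in fold than the falls. Of the arms that rose, 21 did so by 2-fold or more, and the median log2 change among all 35 was 1.08. Of the arms that fell, 3 did so by 2-fold or more, with a median of -0.50. The 35 arms that rose together took 11.6%, 11.7%, 12.6% and 12.8% of the library from 22 to 25 h and 14.5%, 16.7%, 18.0% and 19.6% from 26 to 29 h. The 62 arms that fell took 11.3%, 11.5%, 11.2% and 11.1% and then 9.87%, 8.94%, 8.96% and 8.03%. Both sums moved less within the early window than within the late one, and each hour of the late window lay beyond all 4 early hours. Since the arms were chosen by this test, these shares are a description of the calls.

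**Figure D1:**
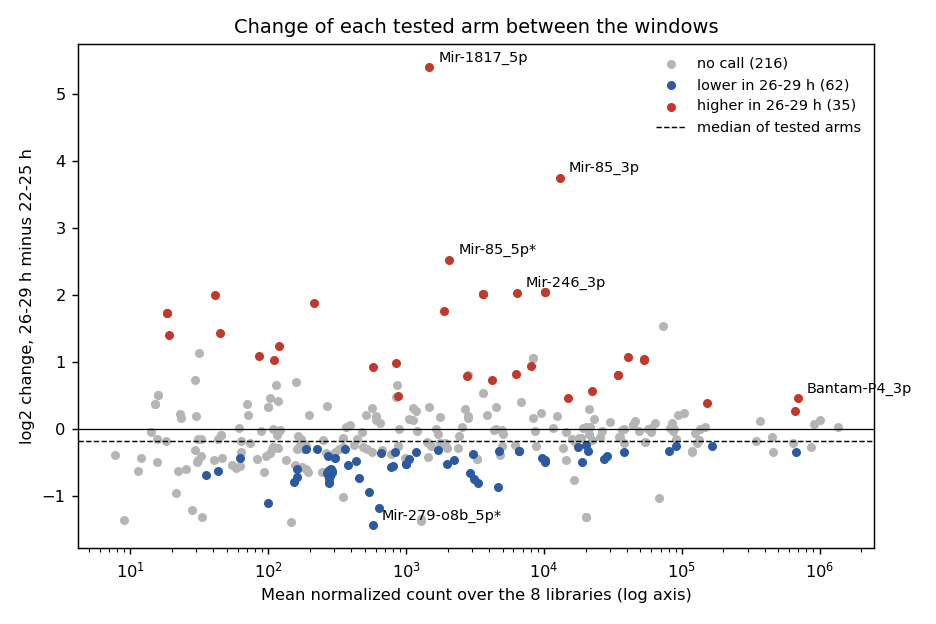
Each point is 1 of the 313 tested arms, with its mean normalized count over the 8 libraries on a log x axis and its fitted log2 change (hours 26 to 29 minus hours 22 to 25) on the y axis, coloured by call. The 35 arms called higher reach a log2 change of 5.40, whereas the 62 called lower reach down to -1.43, and the dashed line is the median of all tested arms at -0.18.

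The median change of all 313 arms was -0.18, with a median SE of 0.17. The windows did not overlap for 32 arms that lay higher (10.2%) and 85 that lay lower (27.2%) in hours 26 to 29, and this held for 29 of the 35 rises and for all 62 falls. The median shift depended on the scale. With TMM factors it was -0.043 and with median-of-ratios size factors -0.0046 (log2), and the split of calls moved from 35 higher and 62 lower to 45 and 34 and to 45 and 25. All 35 rises were called under column totals, TMM factors, size factors and DESeq2, and 25 of the 62 falls were. Because the other scalings shift the median change upward, they favour rises and count against falls, so these counts do not compare the 2 directions fairly. In a fit of all 16 libraries 29 of the 35 rises and 41 of the 62 falls were also called. Each of the 97 arms kept its direction under all of these. The calls also rest on single hours, since leaving out 23 h, 24 h or 28 h left no arm called, with a lowest adjusted p of 0.0612, 0.0579 and 0.0606. Leaving out 27 h gave 21 rises and 21 falls, and leaving out 29 h gave 18 and 31. In each of the 8 fits that leave out 1 hour, all 97 arms kept their direction and an unadjusted p below 0.05 in edgeR. Since these arms were chosen by a low p in the same libraries, this is largely set by the choice and is no separate support. Of all 313 tested arms, 120, 124 and 114 had such a p without 23 h, 24 h and 28 h.

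The largest rise was that of Mir-1817_5p, the guide of its hairpin. Its normalized counts were 24.2, 43.0, 85.9 and 121 from 22 to 25 h and 495, 1684, 4267 and 5083 from 26 to 29 h. It was higher at each hour than at the hour before, and no late hour came near an early one. The value at 22 h rests on 29 reads, which gives an exact 95% interval of 16.2 to 34.8 normalized counts from counting error. The log2 change was 5.40 (SE 0.87), a 42.3-fold difference, with an adjusted p of 0.0204. In hours 18 to 21 the arm stood at 3.50 to 12.4 and in hours 30 to 33 at 4566 to 5993, so that nearly all of its rise lay within these 8 h. The passenger of Mir-1817 was below the count minimum.

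Both arms of Mir-85 rose. The guide Mir-85_3p had normalized counts of 278, 842, 2229 and 3885 from 22 to 25 h and 10393, 20026, 25202 and 41765 from 26 to 29 h, a log2 change of 3.75 (SE 0.83) and an adjusted p of 0.0204. It was higher at every hour than at the one before. The passenger Mir-85_5p* had 57.6, 346, 563 and 1463 from 22 to 25 h and 2471, 3538, 4209.6 and 3783 from 26 to 29 h, and its log2 change was 2.53 (SE 0.79) with an adjusted p of 0.0449. The passenger levelled off within the late window while the guide went on to its highest level at 29 h. In hours 30 to 33 the mean level of the guide was 37298 and that of the passenger 1612.

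The Mir-193 family followed a like course. Of its 8 arms, 6 rose and 2 had no call, and with rows alike taken once these are 4 arms that rose out of 5. The guide Mir-193-P1-v1_3p went through 1966, 2983, 4106 and 6809 from 22 to 25 h and 10785, 16362, 17803 and 20805 from 26 to 29 h, a log2 change of 2.05 (SE 0.39) at an adjusted p of 0.0204. The guide Mir-193-P2-v1_3p, at a lower level, went through 643, 1068, 1479 and 2533 from 22 to 25 h and 3654, 5651, 6822 and 6983 from 26 to 29 h, with a log2 change of 2.01 (SE 0.42). For both guides the windows were separate, and every hourly step was upward. The passenger Mir-193-P1-v1_5p* had 1302, 3478, 5644 and 11123 from 22 to 25 h and 14040.5, 13176, 11032 and 6761 from 26 to 29 h. It was highest at 26 h and back at 6761 at 29 h, and its change of 1.06 (SE 0.57) had no call, with an adjusted p of 0.174. The other passenger, Mir-193-P2-v1_5p*, was scarce throughout, at 3.31 to 21.3 in the early and 23.0 to 34.9 in the late window, and rose by 1.73 (SE 0.52) on the log2 scale.

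The guide Mir-246_3p had normalized counts of 1189, 1728, 2620.5 and 4467 from 22 to 25 h and 7280.5, 9306, 11937 and 12463 from 26 to 29 h. Again each hour was above the one before and the windows were separate. Its log2 change was 2.03 (SE 0.41) with an adjusted p of 0.0204, and its passenger Mir-246_5p* also rose, by 1.44 (SE 0.40), at levels below 100 in each of the 8 libraries. The guide Mir-789_5p had 25.9, 32.3, 91.4 and 220.5 from 22 to 25 h and 344, 362, 354 and 294 from 26 to 29 h. Most of its rise lay within the early window, where it went up at every hour, and the 4 late hours were close to each other. Its log2 change was 1.89 (SE 0.61) with an adjusted p of 0.0498, and the other arm, Mir-789_3p*, had no call (0.42).

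**Figure D2:**
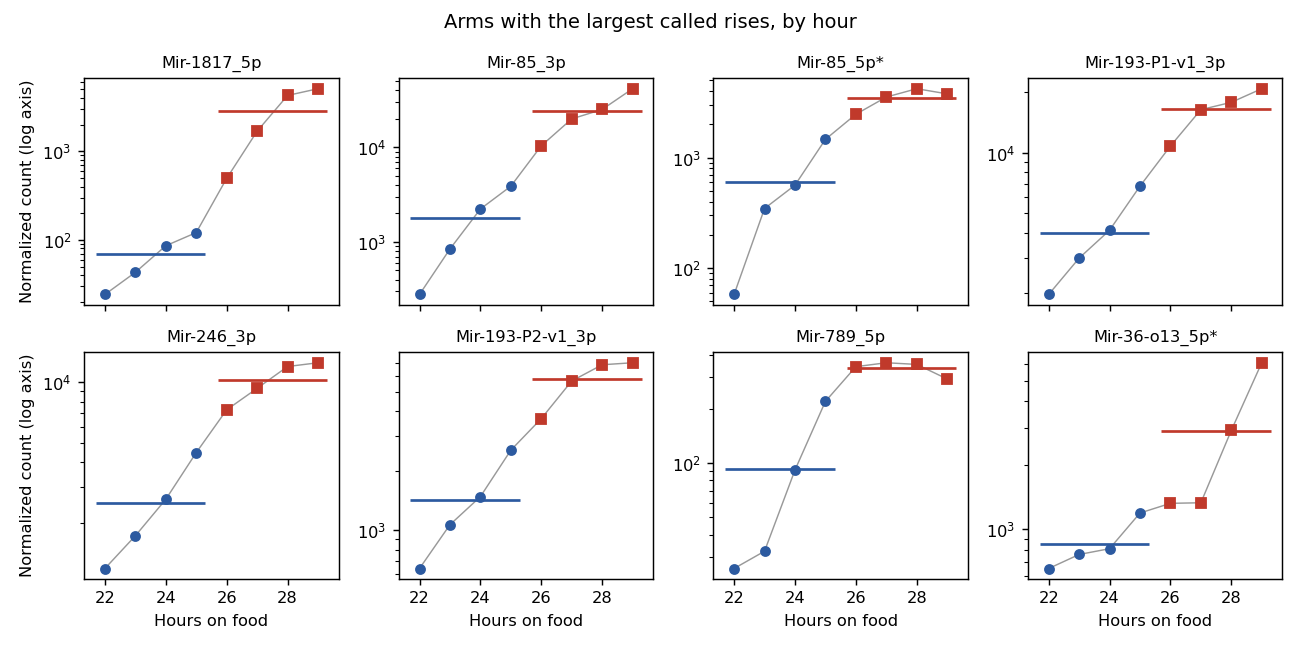
Normalized count on a log y axis against hours on food for 8 of the 10 arms with the largest called rises, with blue circles for hours 22 to 25, red squares for hours 26 to 29 and horizontal lines at the window means. Mir-1817_5p goes from 24.2 to 5083 and Mir-85_3p from 278 to 41765 over the 8 hours, and in all 8 arms each late hour lies above each early hour.

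The 4 arms of Mir-77 all rose, but the P1 and P2 rows agree within sampling noise, so that they count as 2 arms. The 5p arm Mir-77-P1_5p*, which carries the asterisk but was the more abundant, had 26500.0, 37570.4, 35005 and 39300.1 from 22 to 25 h and 46897, 63167, 78874 and 95589 from 26 to 29 h. The 3p arm Mir-77-P1_3p had 18956, 23423, 28072 and 29478 from 22 to 25 h and 31506, 36067, 49751 and 58113 from 26 to 29 h. In both arms every late hour was above every early hour, and the log2 changes were 1.04 (SE 0.22) and 0.81 (SE 0.22). The hairpin was still higher after this, with means of 108349 and 83328 in hours 30 to 33.

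Among the most abundant arms of the library, the changes were small in fold but large in reads. The Bantam family was the most abundant. In Drosophila, bantam promotes growth and blocks cell death, and its relatives in C. elegans are the miR-58 family. Its summed level was 26.8% to 28.9% of the library in the early and 30.3% to 33.3% in the late window. Of 9 tested arms 3 rose and none fell, against 11.2% and 19.8% of all tested arms. The guide Bantam-P4_3p had 595069, 555701, 589867 and 580552 from 22 to 25 h and 643445, 743182, 849349 and 966967 from 26 to 29 h. It stayed within a narrow band until 25 h and was higher at each hour after that. Its log2 change was 0.46 (SE 0.12) with an adjusted p of 0.0247. The guide Bantam-P2_3p had 526719, 573786, 637728 and 645974 from 22 to 25 h and 699600.1, 747487, 713102 and 727496 from 26 to 29 h and a log2 change of 0.28 (SE 0.07), with its rise spread over both windows. In the fit of all 16 libraries its adjusted p was 0.0717. The passenger Bantam-P4_5p* was at 526 to 639 in the early and 926 to 1398 in the late window and rose by 0.98 (SE 0.14) on the log2 scale. The most abundant arm of all, Bantam-P1a_3p, was at 1226891 to 1402759 in the early and 1354984 to 1392210.1 in the late window, with no call at a log2 change of 0.03 (SE 0.05). Bantam-P3_3p had no call either, at 0.14 (SE 0.05) with an adjusted p of 0.0685. However, it was called higher with TMM factors (adjusted p 0.0351), size factors (0.0380) and DESeq2 (0.00822). Bantam-P1a_3p was called higher with DESeq2 (adjusted p 0.0441) but not with TMM or size factors.

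The let-7 family includes let-7 itself, which in C. elegans accumulates in late larval life and is required for the switch to adult fates, and relatives that act at earlier transitions. Of 8 arms 1 rose, which is close to the 11.2% of all tested arms, and none fell. The summed level was 5.50% to 5.96% of the library in the early and 5.69% to 5.92% in the late window. The arm that rose was the guide Let-7-P5_5p. Its normalized counts were 143145, 126489.6, 128160.4 and 133213 from 22 to 25 h and 167987, 180206, 175280.4 and 171048 from 26 to 29 h. Within each window the 4 hours lay close together, and none of the 8 libraries lay between 143145 and 167987. The log2 change was 0.39 (SE 0.06) with an adjusted p of 0.0204, but the call was lost in the fit of all 16 libraries (adjusted p 0.514). The mean of hours 18 to 21 was 65531 and that of hours 30 to 33 135448, so its window mean was highest from 26 to 29 h. Its passenger Let-7-P5_3p* ran through 1786, 793, 1367 and 4187 from 22 to 25 h and 6529.6, 4851, 2041 and 849 from 26 to 29 h, a peak at 26 h that fell on the border of the windows, and had no call at a log2 change of 0.81 (SE 0.69), with an adjusted p of 0.375. The most abundant member, Let-7-P8_5p, was at 449234 to 490374 in the early and 409108 to 455213 in the late window with no call (-0.11). Let-7-P6_5p, without a call at 0.17, was called higher with TMM factors (adjusted p 0.0439), size factors (0.0441) and DESeq2 (0.00153).

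The Mir-36 family holds the relatives of the C. elegans miR-35 family, which is made in the germline and the embryo and is needed for embryonic development. Its 60 rows gave 42 tested arms, of which 7 rose and 13 fell, against 11.2% and 19.8% of all tested arms. Among the 30 guides 4 rose and 13 fell, and among the 12 tested passengers 3 rose and none fell. Taken once, the rows alike leave 26 tested arms, of which 7 rose and 4 fell, since the falls come largely from rows with nearly the same counts. Under TMM factors, size factors and DESeq2, which shift the median change upward and so favour rises, all 7 rises were also called, and 5 of the 13 falls were. In the fit of all 16 libraries 3 of the 7 rises and 1 of the 13 falls were called.

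Both directions occurred among the guides of the family. The guide Mir-36-o19_3p had 5193, 4154, 3938 and 4712 from 22 to 25 h and 5964, 6725, 7206 and 12069 from 26 to 29 h, with a log2 change of 0.83 (SE 0.23) and an adjusted p of 0.0305. Its passenger Mir-36-o19_5p* rose by 1.24 (SE 0.38) and its windows overlapped, at 55.9 to 87.5 in the early and 86.2 to 307 in the late window. The guide Mir-36-o13_3p had 2245, 1825, 1908 and 2137 from 22 to 25 h and 2666, 2989, 3592 and 4820.0 from 26 to 29 h and a log2 change of 0.79 (SE 0.19). Its passenger Mir-36-o13_5p* had 654, 761, 810.2 and 1192 from 22 to 25 h and 1324, 1332, 2915 and 6061 from 26 to 29 h, a change of 1.77 (SE 0.51), most of it at 28 and 29 h. The guide Mir-36-o1_3p, at 2788 to 3569 in the early and 4327 to 6866 in the late window, rose by 0.73 (SE 0.17). In the fit of all 16 libraries these 3 guides were not called, with adjusted p-values of 0.0585, 0.0699 and 0.0912 in the order given. In hours 30 to 33 they were higher still, with means of 66885, 23266 and 32984 in the same order.

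In contrast, the guide Mir-36-o15_3p had 3878, 3909, 4614 and 4445 from 22 to 25 h and 3544, 2500.2, 2236 and 1392 from 26 to 29 h and fell by 0.80 on the log2 scale (SE 0.25, adjusted p 0.0474). It was lower at each hour after 24 h, and no late hour reached an early one, but with TMM factors the adjusted p was 0.0593. The guides Mir-36-o5_3p, Mir-36-o4_3p and 7 others that fell are rows of like counts between 123 and 426 per library, and their log2 changes were close to each other, such as -0.79 and -0.73, the first with an adjusted p of 0.0513 under TMM factors. Mir-36-o17_3p fell by 0.79 (SE 0.21) at a lower level. The most abundant guides of the family had no call. Mir-36-o24_3p had a log2 change of 0.30 and Mir-36-o14_3p of -0.46, with adjusted p-values of 0.156 and 0.0634.

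**Figure D3:**
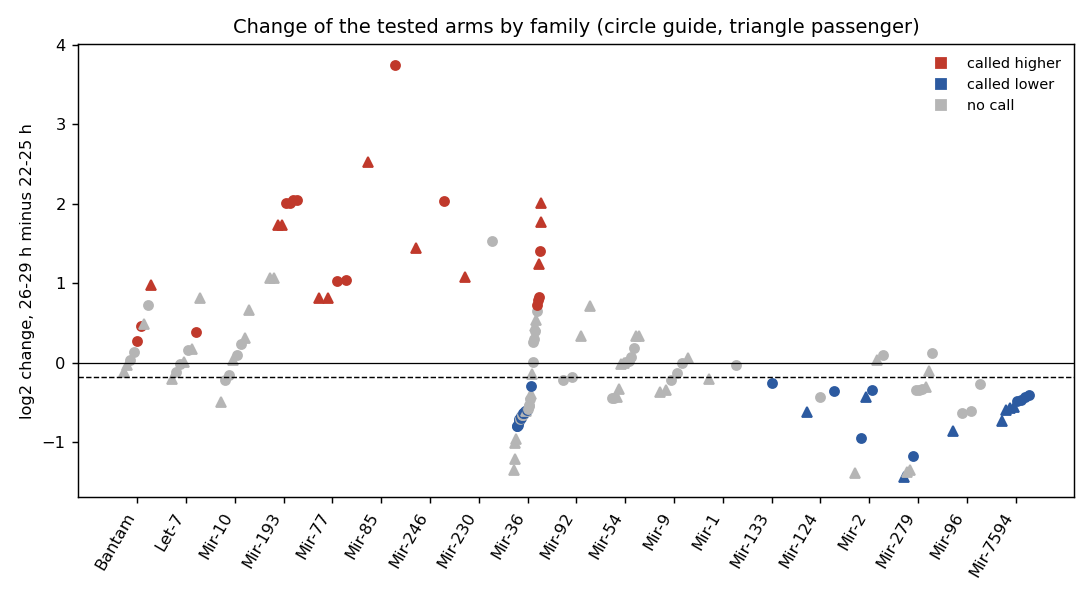
Fitted log2 change between the windows for the tested arms of 19 families, circles for guides and triangles for passengers, coloured by call, with a dashed line at the median of all tested arms. Mir-193, Mir-77, Mir-85 and Mir-246 lie above 0, Mir-36 spreads to both sides of 0, and the 8 arms of Mir-7594, a family added after its values were seen, lie between -0.73 and -0.40.

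The largest fall was that of a passenger, Mir-279-o8b_5p*. In Drosophila, miR-279 restricts the formation of CO2-sensing neurons. The arm had 651, 849, 996 and 854 from 22 to 25 h and 569, 248, 170.1 and 252 from 26 to 29 h, a log2 change of -1.43 (SE 0.36) with an adjusted p of 0.0247. It was highest at 24 h, and all 4 late hours lay below all early ones. Its guide Mir-279-o8b_3p, one of the 10 most abundant arms, had 591721, 475433, 497279.5 and 496570.0 from 22 to 25 h and 521299, 436170.2, 340035 and 331427 from 26 to 29 h, and its change of -0.34 (SE 0.15) had no call at an adjusted p of 0.114. The guide Mir-279-o10_3p had 819.9, 996, 942 and 747 from 22 to 25 h and 586, 356, 306 and 299.7 from 26 to 29 h. It fell by 1.18 on the log2 scale (SE 0.23, adjusted p 0.0204), while its partner Mir-279-o10_5p had no call (-0.30). The other 8 tested arms of Mir-279 had no call.

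Mir-2, which in Drosophila represses cell death genes, had 3 arms that fell out of 6, against 19.8% of all tested arms. The guide Mir-2-o4_3p had 623, 679, 711 and 815 from 22 to 25 h and 521, 350.4, 331 and 267 from 26 to 29 h. It was at its highest at 25 h and lower at every hour after that, with a log2 change of -0.94 (SE 0.20) and an adjusted p of 0.0204. The abundant guide Mir-2-o3_3p was at 41612 to 43717 in the early and 32252 to 36517 in the late window and had a log2 change of -0.34 (SE 0.07), a call lost with size factors (adjusted p 0.0828). Its passenger Mir-2-o3_5p* also fell, with a log2 change of -0.43 (SE 0.12), a call lost with TMM factors (adjusted p 0.0770) and with all 16 libraries (0.0699). The passenger Mir-2-o4_5p* was at 45.1, 152, 260.0 and 396 from 22 to 25 h and 209, 75.8, 20.2 and 16.3 from 26 to 29 h, and this wide course gave no call at a log2 change of -1.39 (SE 0.88).

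In Mir-96, a family known from sensory cells of vertebrates, 1 of 4 tested arms fell, against 19.8% of all tested arms. The passenger Mir-96-P3_3p* had 6321, 6486, 5444 and 5491 from 22 to 25 h and 4204, 3182, 3397 and 2307 from 26 to 29 h, with a log2 change of -0.86 (SE 0.18) and an adjusted p of 0.0204. Its guide Mir-96-P3_5p, the fourth most abundant arm, had 948886, 1048956, 856509.8 and 922818 from 22 to 25 h and 868888, 836544, 719403 and 705573 from 26 to 29 h. The windows of the guide overlapped, and its change of -0.27 (SE 0.09) had an adjusted p of 0.0507. The most abundant arm that fell was the guide Mir-90-P1_3p. It had 761499.8, 756739, 728962 and 732972 from 22 to 25 h and 655658, 586465, 607751 and 508217 from 26 to 29 h, with a log2 change of -0.34 (SE 0.07) and an adjusted p of 0.0204, and its windows did not overlap. With size factors the adjusted p was 0.0711.

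Among the scarcer guides, Mir-7595-P2b_5p was at 280.4 to 435 in the early and 176 to 228 in the late window. Its windows were separate, and it had a log2 change of -0.80 (SE 0.16) with an adjusted p of 0.0204.

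**Figure D4:**
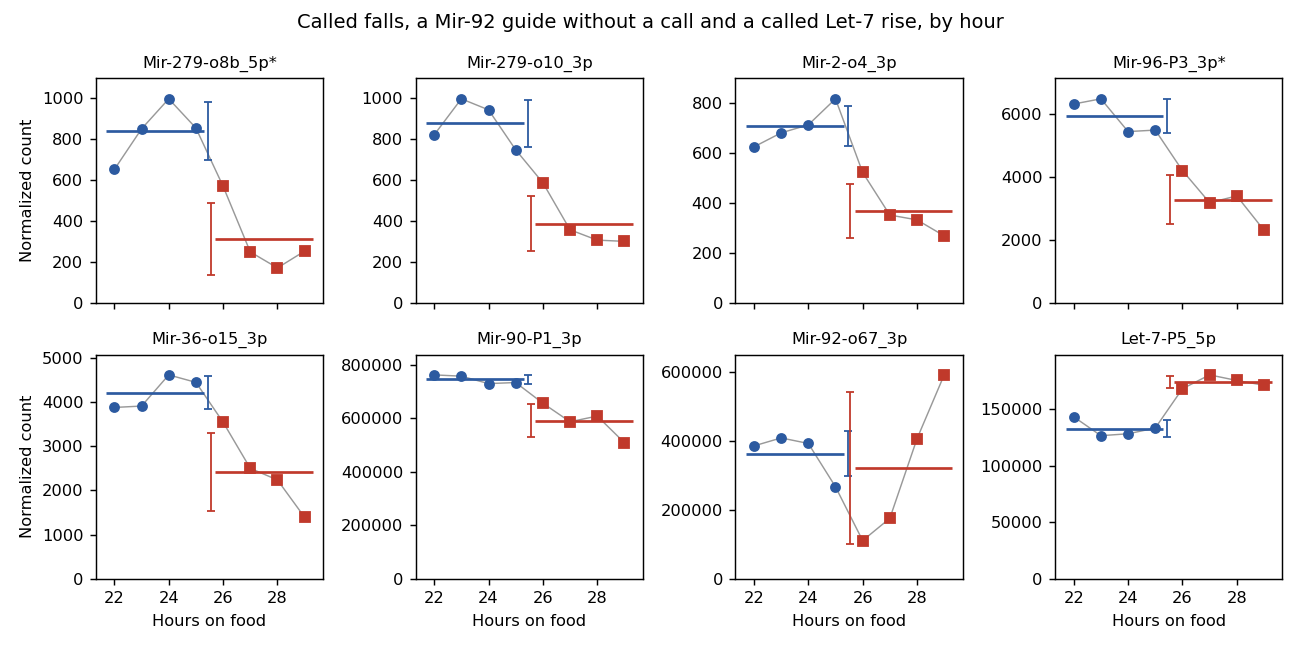
Normalized count on a linear y axis from 0 against hours on food, with blue circles for hours 22 to 25, red squares for hours 26 to 29, horizontal lines at the window means and bars of 1 SD (n = 4 hours) beside them. The 6 arms from Mir-279-o8b_5p* to Mir-90-P1_3p fell with no overlap of the windows, Mir-92-o67_3p dips to 110779 at 26 h and has no call, and Let-7-P5_5p lies higher at all 4 late hours.

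The tissue markers were present in every library. Mir-1 is the muscle miRNA of animals from nematodes to mammals, and its guide Mir-1_3p was at 25341 to 29791 in the early and 23766 to 28319 in the late window, with overlapping windows and a log2 change of -0.03 (SE 0.09). The other muscle marker, Mir-133_3p, known from vertebrate muscle, had 104158, 95399, 96726 and 94370.2 from 22 to 25 h and 90134, 83784, 78977 and 75854 from 26 to 29 h, and fell by 0.25 on the log2 scale (SE 0.07, adjusted p 0.0356). Of the neuronal marker Mir-124, which in C. elegans is made in sensory neurons, 2 of 3 tested arms fell, against 19.8% of all tested arms. Its guide Mir-124-P10_3p had 782, 698, 708 and 739.7 from 22 to 25 h and 561, 576, 567 and 590.1 from 26 to 29 h, and a log2 change of -0.35 (SE 0.08). The falls of Mir-133_3p and Mir-124-P10_3p were not called with TMM factors, where the adjusted p was 0.202 and 0.118, and that of Mir-124-P10_5p* was not called with size factors (0.0647). Whether the share of tissues in the animals moved with the other changes was not tested.

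Families with wide courses over the 8 hours often gave no call, and the windows cut across these courses. Mir-92 holds the relatives of C. elegans miR-235, which keeps blast cells quiescent in starved L1 larvae. None of its 4 arms was called. The guide Mir-92-o67_3p had 385495, 408678, 392648 and 266972 from 22 to 25 h and 110779, 175499.9, 406262 and 591541 from 26 to 29 h. It was at its lowest level at 26 h and at its highest at 29 h, so both extremes lay in the late window, and the log2 change between window means was -0.18 (SE 0.48). The second guide, Mir-92-o68_3p, had its lowest level at 26 h and its highest at 29 h as well, at 13338 and 61171, with a log2 change of -0.21 (SE 0.43). Of the passengers, Mir-92-o67_5p* was lowest at 25 h (22.4) and highest at 28 h (288), and Mir-92-o68_5p* was lowest at 26 h and highest at 28 h.

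Mir-230 had 1 arm called of 2. The passenger Mir-230_5p had 29646, 28629, 24609 and 21545 from 22 to 25 h and 29079, 60433, 70431 and 60484 from 26 to 29 h, and rose by 1.08 (SE 0.26) on the log2 scale, with an adjusted p of 0.0223 and overlapping windows. The guide Mir-230_3p had 63396, 43639.6, 27355 and 15233 from 22 to 25 h and 31274, 135772, 165016 and 102028 from 26 to 29 h. It was lower at each early hour than at the one before, and highest at 28 h. Its change of 1.54 (SE 0.57) was larger than that of the passenger, but its spread within windows was also larger and the adjusted p was 0.0674. Both arms were lowest at 25 h.

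Mir-71, which in C. elegans promotes long lifespan, had no arm called. Its guide Mir-71_5p had 49069.8, 86581, 117020.1 and 110887 from 22 to 25 h and 77889, 32180.3, 25270.0 and 43809 from 26 to 29 h. Of these 8 hours it was highest at 24 h and lowest at 28 h, and the change of -1.02 (SE 0.39) had an adjusted p of 0.0772. In hours 30 to 33 it was at 86849.6 to 159462. Neither arm of Mir-788 was called. The passenger Mir-788-v1_5p* had 20067, 35312, 30221 and 29792 from 22 to 25 h and 21559, 13058, 7649 and 4433 from 26 to 29 h, with a change of -1.30 (SE 0.45) and an adjusted p of 0.0568. The guide Mir-788-v1_3p had 65633, 40356, 33821 and 34809 from 22 to 25 h and 56403, 58492, 39227 and 27579 from 26 to 29 h, with a log2 change of 0.06 (SE 0.30). The guide to passenger ratio was not called as changed either (log2 difference 1.56, SE 0.40, limma adjusted p 0.0957), and its windows overlapped. All 8 arms of Mir-10 were without a call with column totals. The guide Mir-10-P3n_5p (log2 change 0.23) was called higher with TMM factors (adjusted p 0.0347), size factors (0.0255) and DESeq2 (0.000458). Its passenger Mir-10-P3n_3p* was at 10185, 5811, 19878 and 44228 from 22 to 25 h and 46580.3, 21304, 7657 and 6538 from 26 to 29 h. Its highest hours, 25 and 26 h, fell into different windows, and the log2 change was 0.04.

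This placement was common among arms without a call. Of the 168 arms without a call and with a mean level of at least 100, 54 ranged over 2-fold or more within the 8 hours. Of these 54, 30 were highest at 25 or 26 h, on either side of the border between windows, and 5 were lowest there. Of the 30, 21 were passengers, while passengers made up 31 of the 54. They include Mir-279-o7_5p*, at 1022, 1362, 2248 and 2800.4 from 22 to 25 h and 1718, 561, 335 and 252 from 26 to 29 h, and Bantam-P2_5p*, at 22185, 32234, 41207 and 51729 from 22 to 25 h and 48508, 33509.7, 28497 and 25523 from 26 to 29 h. With rows alike taken once, 24 of 44 such arms were highest at 25 or 26 h. For these arms a difference between the window means does not describe the course, and the grouping by hour of the highest level carries no test. A peak at the border also makes a call between the windows less likely. Choosing arms without a call therefore favours such peaks, and the count over called arms is not given here.

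A further question was whether the arms stepped at the border of the windows or moved steadily. A window term beside a linear term for the hour was called for none of the 313 arms (0%) in edgeR, with 15 arms at an unadjusted p below 0.05 and a lowest adjusted p of 0.31. With limma none was called either. The largest terms by p were those of Mir-788-v1_3p, with a step of 1.38 (log2, SE 0.29), and Let-7-P5_5p, with 0.44 (SE 0.11), and both had adjusted p-values over the threshold. Without the 26 h library 3 arms were called. Hour and window are closely linked over 8 hours, which limits what this test can detect.

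The hour of the steepest step differed between rising and falling arms as a description of the calls. Of the 62 arms that fell, 22 had their steepest hourly step down from 25 to 26 h, 12 from 28 to 29 h and 11 from 26 to 27 h. With rows alike taken once, the 62 arms are 49. The median log2 step of all tested arms was also downward there, at -0.077, -0.081 and -0.103 in the same order. At the other steps it was 0.0015 to 0.067. The hours of the falls are thus not particular to the called arms. Among the 35 that rose the steepest steps were spread, with 8 from 27 to 28 h, 7 from 24 to 25 h and 5 from 25 to 26 h. Of the rising arms 11 went up at all 7 hourly steps, and of the falling arms 3 went down at all 7.

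Where both arms of a hairpin were called, they shared the direction. Of the 129 hairpins, both arms rose in 12 and both fell in 9. In 5 the guide alone rose and in 20 the guide alone fell, whereas the passenger alone rose in 3 and fell in 5, and in no hairpin were the arms called in opposite directions. Hairpins with rows alike are counted separately here, such as Mir-77-P1 and Mir-77-P2 among the rises and Mir-7594-P1a and Mir-7594-P1b among the falls. Over all arms, 20 of the 184 tested guides rose and 48 fell, and 15 of the 129 tested passengers rose and 14 fell. The passengers took 4.15% to 4.93% of the library in the early and 4.25% to 5.19% in the late window.

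The ratio of guide to passenger, in which the library total cancels apart from the pseudocount, was called as changed for none of the 129 hairpins (0%) with limma, with 27 at an unadjusted p below 0.05 and a lowest adjusted p of 0.0957. The ratios of 9 hairpins lay higher and those of 7 lower in the late window with no overlap. Hairpins with rows alike are again counted separately, such as Mir-788-v1 and Mir-788-v2 in the 27 and Mir-193-P2-v1 and Mir-193-P2-v2 in the 9. For Mir-279-o8b the log2 ratio was 9.26 in the early and 10.44 in the late window, a difference of 1.18 (SE 0.27). For Mir-279-o10 it was 2.83 and 1.89, a difference of -0.94 (SE 0.19). Thus the guide of the first hairpin gained on its passenger and that of the second lost, by values that did not pass the correction over 129 hairpins. For Mir-96-P3 the difference was 0.61 (SE 0.15), and for Mir-193-P2-v1 0.94 (SE 0.26). The number of calls moved with single hours, to 17 without the 26 h library and to 5 without the 22 h library.

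**Figure D5:**
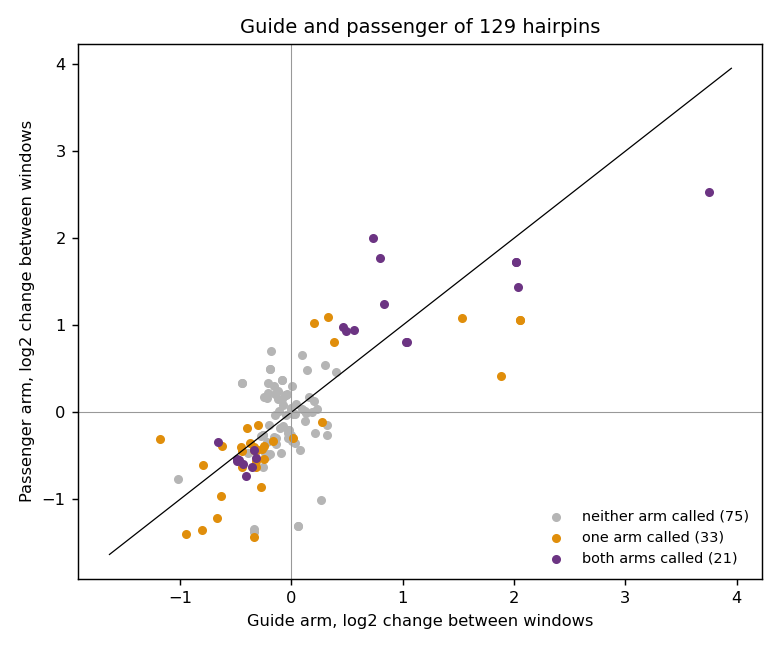
Fitted log2 change of the guide (x axis) and of the passenger (y axis) of 129 hairpins, coloured by how many of the arms were called, with a line of equal change. Points with both arms called (21 hairpins) lie in the lower left or the upper right, and Mir-85 lies farthest out, at 3.75 for the guide and 2.53 for the passenger.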

How the data were processed

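The authors extracted total RNA with Tri Reagent, made libraries with the Illumina TruSeq small RNA kit, mapped reads with Bowtie, keeping those with at most 100 hits, and assigned a read to an arm where its start lay no more than 3 bp from the annotated start on the same strand. The deposited counts are raw, and the deposited log2 values are normalized counts with a pseudocount of 8, which were recomputed here for all 5952 values (largest difference 0.0005). The study's methods give the C. briggsae assembly WS225 with the MirGeneDB annotation, and the submitters' notes name ce10. No genome or sequence was used here. Multiple hits mean that near-identical arms share reads. No column of per-sample values was left out.

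Counts of the 8 libraries were fitted in R 4.3.3 with the quasi-likelihood functions of edgeR 4.0.16, with the column total as library size and hours as replicates, over the 313 arms with 10 or more counts in 4 libraries. Benjamini-Hochberg adjusted p-values were called below 0.05. The step test added the hour as a linear term. Arm ratios were tested with limma 3.58.1 on log2 values with a pseudocount of 8. The scripts were tested on simulated data. Alternatives used TMM factors, median-of-ratios size factors, DESeq2 1.42.0, limma, other filters and each hour left out. Rows count as alike where they belong to the same family and arm and have a mean count of at least 50. They also had to show either a p above 0.001 for a difference in counts or a largest log2 difference below 0.1. Rows linked through another row were put into the same set. The one kind of interval given, exact and at 95%, reflects counting error alone because PCR copies could not be told from molecules. The named arms are, per direction, the 10 largest called changes with a mean of at least 100, the 10 most abundant arms, the Mir-92 arms, partner arms, up to 4 arms of each listed family and the 10 arms with the widest spread within windows, of which 1 arm without a family name is not described. Members, lists and tests were chosen with earlier results of these data known. The token Lin-4 matched no row, which is a match of names only.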

Additional observations from a re-analysis of the deposited data

Results flagged for a closer look

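In 7 of 216 groups of 4 hours, 1 hour lay far from the other 3 by Dixon's criterion, and chance alone gives about 1 in 20 such groups. In hours 22 to 25, Mir-92-o67_3p had its lowest normalized count, 266971.7, at 25 h, against 385495.0 to 408677.6 at the other hours. In the same window Mir-96-P2p_5p had its highest, 340.7, at 22 h, against 183.8 to 199.2. In hours 26 to 29, the lowest values at 29 h were 11527.7 for Mir-54-P1a_3p, 83842.2 for Mir-54-P2_3p and 91931.2 for Mir-9-P16_5p. Highest values were 4690.5 for Mir-29-P1_3p at 28 h and 33762.5 for Mir-10-P3m_5p at 27 h. None of these arms was called between the windows.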

How the results depend on the processing

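The count of arms that rose was 35, and 30 to 45 with TMM factors, size factors, limma with a pseudocount of 8 or 1, other filters, all 16 libraries in the fit, a common slope within windows or the -v2 rows left out, 29 with rows alike taken once (chosen after seeing the data) and 59 with DESeq2. The count of arms that fell was 62, against 34 with TMM factors, 25 with size factors, 51 with DESeq2, 73 with limma at a pseudocount of 8, 88 with a common slope and 44 with rows alike taken once. Of the 97 calls, 69 were shared with TMM factors, 60 with size factors, 80 with DESeq2 and 95 with limma. Leaving out 1 hour at a time gave 0 to 38 rises and 0 to 93 falls, with 0 of both without the 23 h, 24 h or 28 h library, 21 rises and 21 falls without the 27 h library and 18 and 31 without the 29 h library, and these fits have 1 library fewer. The step test gave 0 to 3 arms over the hours left out, and the ratio test 0 to 17 hairpins, with 1 in the fit of all 16 libraries. Among the named arms, Cbr-Let-7-P7_5p changed sign and was called with DESeq2, from -0.02 to 0.15 (log2, adjusted p 0.0185). It was also positive with TMM factors (0.12) and size factors (0.15), without a call. Other arms without a call changed sign as well, such as Let-7-P8_5p (-0.11 to 0.06) and Mir-1_3p (-0.03 to 0.14) with size factors. The median change of all tested arms moved in the same direction, from -0.18 with column totals to -0.0046 with size factors. These changes of sign are therefore not particular to the arms named. No cause beyond the scale was tested. The direction of all 39 named arms with a call held under every alternative, but these arms were called in the same libraries. No paired analysis was possible because each hour has 1 library and the replicate numbers only name the hours. Depth limits arms below about 100 counts, such as Mir-246_5p*, whose errors from counting are wide.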

Other observations

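Arms of several families that no list had named also passed the test between the windows, and they were chosen here after their values were seen. All 8 arms of Mir-7594 fell, which are 6 arms with rows alike taken once, and all 8 were also called with TMM factors, size factors and DESeq2. The guide Mir-7594-P2a_3p had 31939, 33377, 34041 and 30942 from 22 to 25 h and 27338, 26069.9, 23094 and 22019 from 26 to 29 h, and its passenger Mir-7594-P2a_5p* had 621, 552, 587 and 527 from 22 to 25 h and 405, 361, 342 and 269.5 from 26 to 29 h. In both arms the early hours formed a plateau and every late hour lay below it. Of the 12 arms of Mir-73, 4 fell, against 19.8% of all tested arms. Among the 4 was Mir-73-P1a_3p, at 28048 to 32319.8 in the early and 20483 to 26195 in the late window. Of these 4 calls 1 held under all of these scalings. Both arms of Mir-231 fell, with a log2 change of -0.48 (SE 0.10) for the guide Mir-231_3p and -0.54 (SE 0.14) for the passenger. The guide Lsy-6_3p, of the miRNA that in C. elegans sets the left and right identities of a pair of taste neurons, was at 464 to 547 in the early and 342 to 401 in the late window, with a log2 change of -0.47 (SE 0.10) and an adjusted p of 0.0204 in edgeR.

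Both arms of Mir-2231 rose. The passenger Mir-2231_5p* had 7057, 5798, 4545 and 4746 from 22 to 25 h and 8780.4, 11674, 12150.1 and 10078 from 26 to 29 h, and a mean of 4200.1 in hours 30 to 33. It was lowest at 24 h and highest at 28 h. Both arms of Mir-216-P2 rose as well, with log2 changes of 0.49 (SE 0.16) for the guide Mir-216-P2_5p and 0.93 (SE 0.23) for the passenger. Mir-785-P1_3p, one of 3 tested arms of Mir-785, had 11339.6, 11818, 13189 and 13719.5 from 22 to 25 h and 14346, 15674, 19167 and 20112 from 26 to 29 h, an upward step at every hour and a log2 change of 0.47 (SE 0.13). Mir-54, Mir-9, Mir-190, Mir-29, Mir-357 and Mir-358 had no arm called with column totals. The abundant guide Mir-54-P3_3p (log2 change 0.07) was called higher in edgeR with TMM factors (adjusted p 0.0295) and size factors (0.0235) and in DESeq2 (6.87e-05). Mir-190_5p was called higher with DESeq2 (adjusted p 0.00239) but not with TMM or size factors.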
